A study of Homo sapiens with 9 samples.

Results

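PRMT1 and H3-3A were the chromatin genes among the 20 array probes that could be given a gene name, and their RNA was followed across the IOSE80, SKOV3 and SKOV3-DDP cell lines. Each gene had 1 probe, spotted 10 times on every array. The arrays held 60924 gene probes in all, of which 60904 had a single spot and no gene name in the files. Both genes were selected after earlier results on these arrays were known, including their differences between SKOV3-DDP and the other lines. Differences that involve SKOV3-DDP are therefore described here without a test. IOSE80 comes from the normal ovarian surface epithelium and was immortalized in culture, SKOV3 comes from an ovarian cancer of glandular type, and SKOV3-DDP is labelled as its cisplatin-resistant derivative. Each line's total RNA was labeled with Cy3 and applied to 3 one-color Arraystar human lncRNA arrays (version 4.0), giving 9 arrays. The labels give no drug exposure, passage or age for any line, and they do not say whether the 3 arrays of a line came from separate cultures. The arrays labelled SKOV3-DDP stood apart from the others in control probes for GAPDH and PGK1, glycolytic genes that the array carries in human, mouse and rat versions. Before scaling, with SKOV3-DDP averaged over its arrays, 5 of the 8 mouse and rat probes were above both other lines and 3 below. Of the 4 human probes, 0 were above and 3 below. These counts depend on the scaling, because the SKOV3-DDP arrays were dimmer at the percentile used for it. The probe values, listed with the account of the scaling, go against the label of a human line derived from SKOV3. SKOV3-DDP is used here as the name on the label. The main fit of SKOV3 against IOSE80 also drew on those arrays, through the shared spread, the scaling percentile and the probe filter. A fit without them is given beside it, which removes them from the spread only, since the scaled values and tested probes stayed the same. Each line stands for itself, so differences between lines are not differences between kinds of ovary tissue.

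PRMT1 is the main enzyme that places asymmetric dimethyl groups on arginine residues, and it acts on histone H4 and on many RNA-binding proteins. The mark it leaves on histone H4 is associated with active promoters. H3-3A is one of the genes that encode histone H3.3, a variant of histone H3 that differs from the replication-coupled forms by a few residues. H3.3 is placed into chromatin outside DNA replication, by the HIRA complex at active genes and by DAXX with ATRX at telomeres and other repeats. Unlike replication-coupled histone genes, H3-3A gives a polyadenylated mRNA throughout the cell cycle.

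The promoters of both genes are shown because they are the regulatory sequence next to the starts of the RNAs measured. Each window covers 250 bases before and 50 bases after a gene start in RefSeq's table for GRCh38.p14. The arrays were designed on hg19, so these positions were not matched to the probes. The PRMT1 window is chr19:49677021-49677320 on the plus strand, and it is the only PRMT1 start in the table. The H3-3A window is chr1:226062466-226062765 on the plus strand. It is 1 of 4 H3-3A starts in the table and was taken because it shares 280 bases with the window of H3-3A-DT, the divergent transcript that starts beside it. Capitals mark CCAAT and GGGCGG on either strand, and overlapping matches were counted.
PRMT1: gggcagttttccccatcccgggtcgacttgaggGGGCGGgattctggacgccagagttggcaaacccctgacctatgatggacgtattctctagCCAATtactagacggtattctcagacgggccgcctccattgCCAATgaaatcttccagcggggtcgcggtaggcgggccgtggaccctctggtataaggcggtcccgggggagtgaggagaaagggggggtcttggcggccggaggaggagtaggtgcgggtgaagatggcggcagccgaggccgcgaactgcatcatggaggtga
H3-3A: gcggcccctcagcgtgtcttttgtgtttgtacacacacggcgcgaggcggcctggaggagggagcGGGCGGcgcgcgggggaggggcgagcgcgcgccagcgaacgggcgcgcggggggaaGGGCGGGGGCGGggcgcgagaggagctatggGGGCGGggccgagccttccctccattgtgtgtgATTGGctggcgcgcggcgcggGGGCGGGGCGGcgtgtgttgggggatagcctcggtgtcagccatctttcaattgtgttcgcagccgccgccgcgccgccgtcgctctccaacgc
The PRMT1 window held 2 matches to CCAAT and 1 to GGGCGG, and the H3-3A window held 1 and 6. Neither window held TATAAA. Among 35116 windows of the same length in the table, 34.6% held CCAAT, 45.0% held GGGCGG and 11.5% held TATAAA. The GC content was 62% for PRMT1 and 74% for H3-3A, against a median of 58.7% over all windows. A match to these letters is a description of the window and does not show that a factor binds there.

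All 90 spots of each gene were well above background and none was saturated. The coefficient of variation over the 10 spots of an array had a median over the 9 arrays of 1.95% for PRMT1 and 2.29% for H3-3A, and reached 2.97% and 3.23%. The brightest spot of an array was at most 1.11 times its dimmest for PRMT1 and 1.09 times for H3-3A. Both signals were far above background, at least 6975 times the median negative control probe for PRMT1 and at least 12746 times for H3-3A. The pooled SD over spots was 0.030 on the log2 scale for PRMT1 and 0.035 for H3-3A. Between arrays of a line, before any scaling, it was 0.077 and 0.045. Spots of an array share 1 labeled sample, so the array was the unit of every comparison.

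Before scaling, PRMT1 was brightest in IOSE80 and dimmest in SKOV3. The background-corrected intensity of PRMT1, as the geometric mean over spots, was 92534, 89724 and 87865 on the IOSE80 arrays. It was 51479, 48443 and 49798 on the SKOV3 arrays, and 65007, 67556 and 76216 on the SKOV3-DDP arrays. No array of one line overlapped those of another, and SKOV3-DDP lay between the other lines. H3-3A had the opposite order. Its intensity was 96117, 101513 and 97634 in IOSE80, 135300, 127452 and 130094 in SKOV3, with 109768, 109305 and 116268 in SKOV3-DDP. Again no lines overlapped and SKOV3-DDP lay in the middle, but here SKOV3 was the brightest line. Such separation was not counted over all probes before scaling. After scaling, 65.1% of probes separated SKOV3 from IOSE80, 91.1% SKOV3-DDP from IOSE80 and 89.4% SKOV3-DDP from SKOV3. Raw intensities of different arrays also carry the brightness of the whole array, which differed in SKOV3-DDP as described next.

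**Figure D1:**
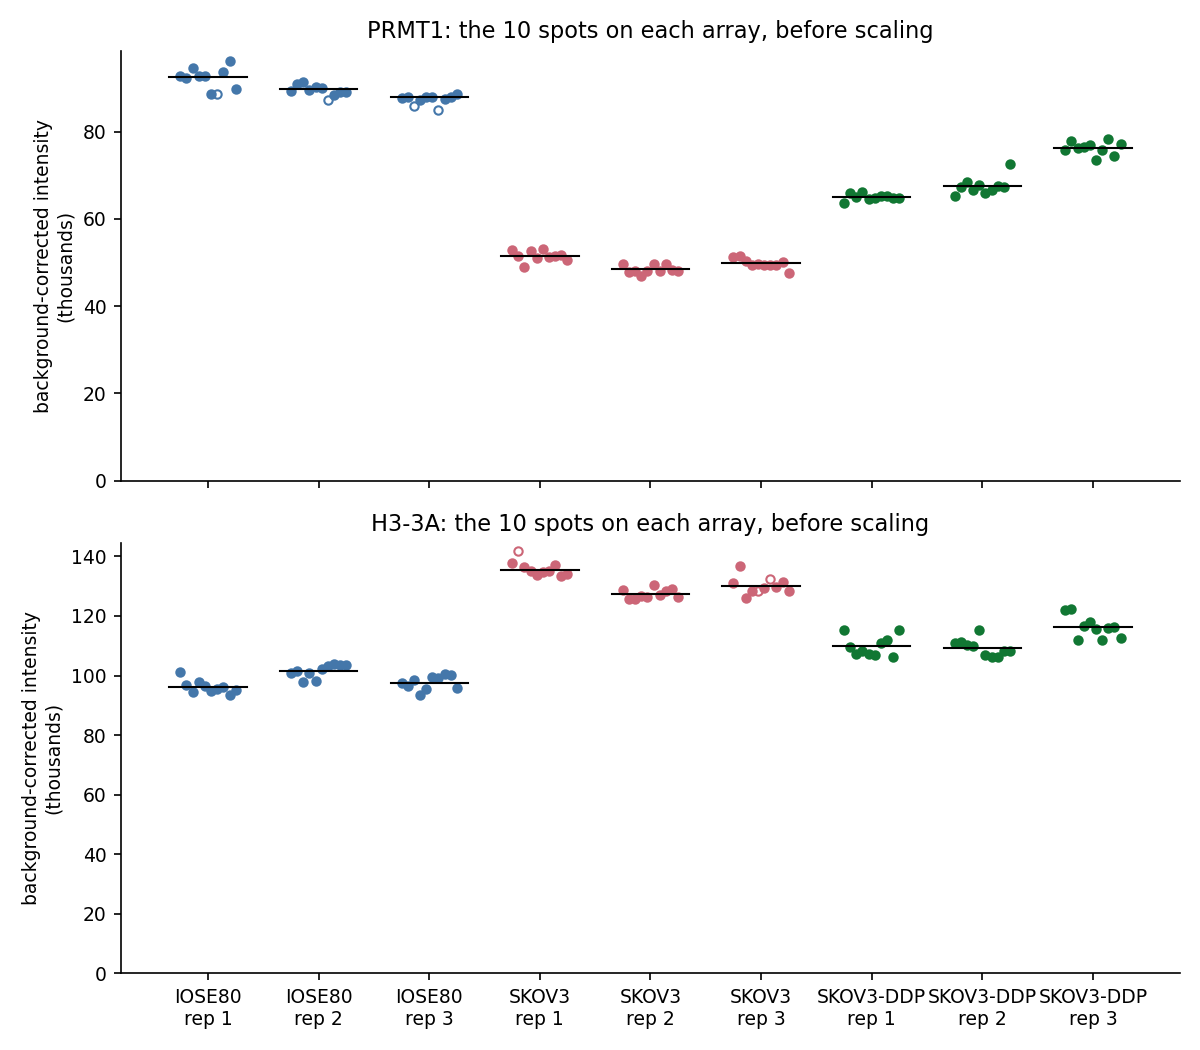
Background-corrected intensity (y axis, from 0) of each of the 10 spots of PRMT1 (top) and H3-3A (bottom) on each of 9 arrays (x axis), before scaling. Open circles are spots the scanner software marked as population outliers, and black lines are geometric means of the other spots, which run from 48443 to 92534 for PRMT1 and from 96117 to 135300 for H3-3A. The spots of an array lie close together and the lines do not overlap, a separation that most probes showed for each pair of lines after scaling.

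The main scale set each array to its own 75th percentile, taken over the 15226 probes that every array measured well above background. This percentile was 12.27 ± 0.12 (SD, n = 3) on the log2 scale in IOSE80 and 12.20 ± 0.066 in SKOV3, against 9.71 ± 0.12 in SKOV3-DDP. The SKOV3-DDP arrays were thus dimmer at this percentile, although PRMT1 and H3-3A were about as bright there as elsewhere. Probes well above background made up 39.2 to 42.6% of all on IOSE80 arrays, 40.1 to 41.2% on SKOV3 arrays and 33.0 to 38.5% on SKOV3-DDP arrays. The spike-in probes could not set the scale, because 1 of 12 ERCC and 0 of 10 E1A probes were well above background on all 9 arrays. Some control probes, though not all, stood apart in SKOV3-DDP, in log2 intensities taken before scaling. Among probes named for rodent transcripts, Mouse-GAPDH_5 had a log2 intensity of 4.42 ± 0.26 in IOSE80 and 4.97 ± 0.073 in SKOV3, against 15.72 ± 0.35 in SKOV3-DDP (SD, n = 3), and was well above background on 0, 1 and 3 arrays, respectively. Mouse-GAPDH_3 was at 9.81, 10.15 and 15.39 in the same order of lines, Mouse-PGK1_3 at 9.65, 11.82 and 14.38, and Rat-PGK1_3 at 4.82, 2.92 and 14.65. Other rodent probes did not rise before scaling, such as Mouse-PGK1_5 at 8.23, 9.63 and 8.08, although the SKOV3-DDP arrays were dimmer at the percentile. Among the human probes, Human-PGK1_3 was at 16.21 ± 0.047 in IOSE80 and 17.35 ± 0.049 in SKOV3, against 12.86 ± 0.12 in SKOV3-DDP, and Human-GAPDH_3 was at 16.43, 16.67 and 16.56. The part of these shifts in the SKOV3-DDP values of PRMT1 and H3-3A was not tested, and how far RNA of another species would bind either probe is not known here. None of the 8 epithelial and 5 mesenchymal marker genes had a named probe, so the identity of the lines could not be checked against their markers.

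The tested comparison was SKOV3 with IOSE80, which asks how the cancer line differed from the normal line. Its differences were also known when the genes were selected, since those of SKOV3-DDP from both lines fix them. The p-values below are therefore not independent of that selection. PRMT1 was lower in SKOV3 and H3-3A was higher, each by less than 2-fold. The scaled PRMT1 level, in log2 units relative to the percentile, was 4.30, 4.04 and 4.22 on the IOSE80 arrays and 3.45, 3.42 and 3.33 on the SKOV3 arrays. All SKOV3 arrays lay at least 0.59 below the lowest IOSE80 array. The difference was -0.78 (SE 0.12, 95% interval -1.07 to -0.50), or 1.72-fold lower, with an adjusted p of 0.000681 in limma over 28591 probes. The scaled H3-3A level was 4.35, 4.22 and 4.37 in IOSE80 and 4.85, 4.82 and 4.72 in SKOV3. Each SKOV3 array lay above each IOSE80 array, with a gap of 0.35. The difference was 0.48 (SE 0.12, 95% interval 0.21 to 0.75), or 1.39-fold higher, with an adjusted p of 0.00875 in limma. Neither gene met the threshold of a fold change above 2, which together with an adjusted p under 0.05 was met by 33.5% of probes (15.9% higher and 17.5% lower in SKOV3). Of all tested probes, 65.1% showed no overlap between these lines, so the separation of the arrays was common to most of the array. PRMT1 had a lower difference than 78.1% of the probes, and H3-3A had a higher one than 67.7%. The median difference over all probes was 0.08.

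These p-values measure the spread between arrays, which may be technical. As in any bulk RNA sample, a smaller number of cells with the RNA and less RNA per cell cannot be told apart. Leaving the SKOV3-DDP arrays out of the fit, on the same scaled values and probes, could not change the differences. Adjusted p was then 0.00114 for PRMT1 and 0.00592 for H3-3A in limma. Across 22 alternative settings the PRMT1 difference stayed between -1.17 and -0.73 and the H3-3A difference between 0.41 and 0.52. Several of these settings could change only the error and not the difference, such as the probe filters and SKOV3-DDP arrays left out. The PRMT1 fold passed 2 in 1 setting, relative to the median of the other 10-spot probes, where the difference was -1.17. The SKOV3 arrays fell into 2 scans, and within scan 1, with 3 IOSE80 and 2 SKOV3 arrays, the differences were -0.75 for PRMT1 and 0.52 for H3-3A.

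In SKOV3-DDP both genes stood higher than in the other lines after scaling, and the size of this depended on the scaling. The scaled PRMT1 level was 6.41, 6.28 and 6.42 on the SKOV3-DDP arrays, and that of H3-3A was 7.16, 6.97 and 7.03. Every SKOV3-DDP array lay above every array of both other lines for both genes, and 91.1% of all probes showed no overlap, in either direction, against IOSE80 and 89.4% against SKOV3. By line, PRMT1 averaged 4.19 ± 0.13 in IOSE80 and 3.40 ± 0.063 in SKOV3, against 6.37 ± 0.079 in SKOV3-DDP (SD, n = 3). H3-3A averaged 4.31 ± 0.080, 4.79 ± 0.068 and 7.06 ± 0.097, respectively. Hence the scaled order was SKOV3-DDP, IOSE80, SKOV3 for PRMT1 and SKOV3-DDP, SKOV3, IOSE80 for H3-3A, with no overlap between neighbors.

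Against IOSE80, PRMT1 was 2.18 higher in SKOV3-DDP and H3-3A was 2.74 higher on the scaled log2 scale. Against SKOV3, PRMT1 was 2.97 higher and H3-3A was 2.26 higher. Both comparisons share the SKOV3-DDP arrays, and the genes were chosen with these differences known, so the values only describe them. Of all probes, 82.0% were called against IOSE80 (52.2% higher and 29.8% lower in SKOV3-DDP) and 80.9% against SKOV3 (52.8% higher and 28.1% lower). A larger positive difference than that of PRMT1 was found in 34.9% of probes against IOSE80 and 16.1% against SKOV3, and for H3-3A in 23.9% and 30.2%. On the quantile-normalized scale they were 46.6% and 28.4% for PRMT1 and 43.5% and 50.3% for H3-3A, which put H3-3A against SKOV3 at the middle of all probes. The median over all probes was itself shifted, by 1.24 against IOSE80 and by 1.27 against SKOV3. Beyond that shift, PRMT1 was 1.92-fold higher than in IOSE80 and 3.24-fold higher than in SKOV3, and H3-3A was 2.83-fold and 1.99-fold higher. After quantile normalization the same excess over the median was, on the log2 scale, 0.28 and 1.26 for PRMT1 and 0.51 and -0.03 for H3-3A, so no excess of H3-3A over SKOV3 was left. Of the calls, 63.6% were higher in SKOV3-DDP than in IOSE80 and 65.3% higher than in SKOV3. These shares were 53.2% and 53.4% after quantile normalization, 53.3% and 53.5% after scaling to the percentile of all probes, and 79.5% and 81.0% after normexp background correction.

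**Figure D2:**
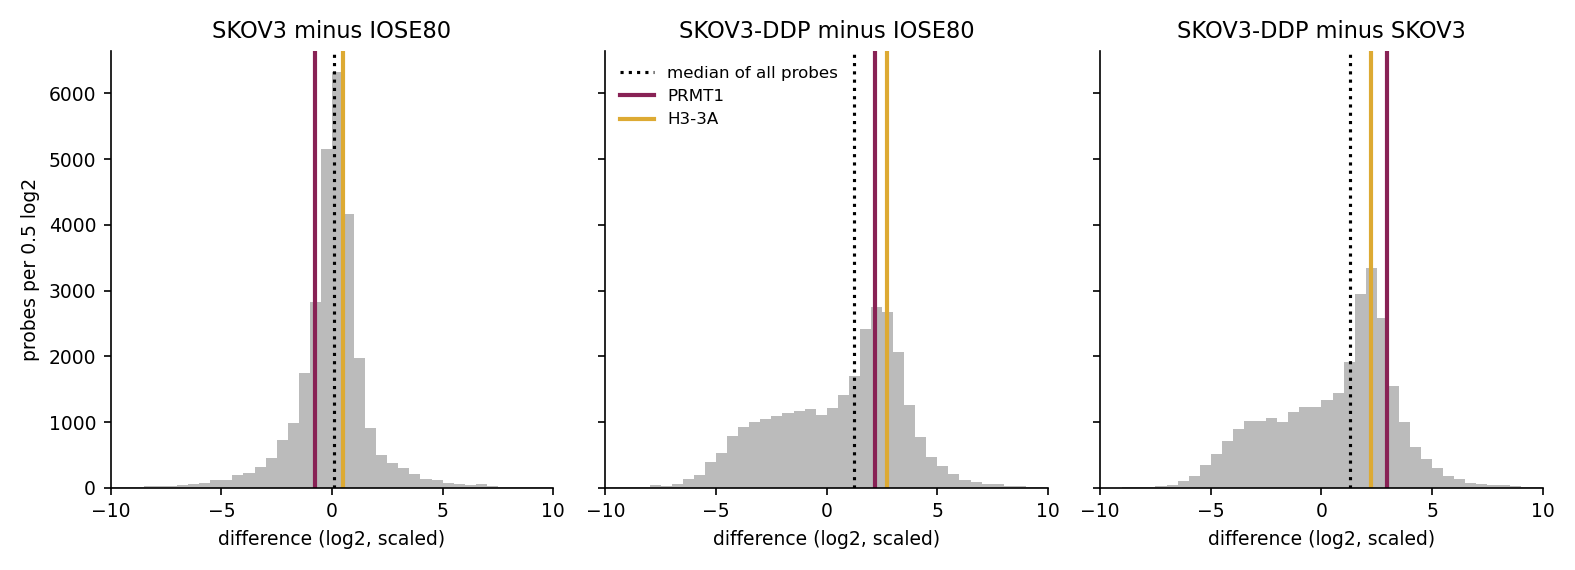
Number of tested probes per 0.5 log2 units (y axis) by their scaled difference in log2 between lines (x axis), for the 3 pairs of lines, with PRMT1 (purple) and H3-3A (yellow) as vertical lines and the median of all probes dotted. In both SKOV3-DDP panels the bulk of the probes sits to the right of 0 with a long left tail, and both genes lie within the main peak or on its right side, at 2.18 and 2.74 against IOSE80 and 2.97 and 2.26 against SKOV3.

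Quantile normalization, which gives every array the same distribution, lowered the SKOV3-DDP differences. Against IOSE80 they became 0.69 for PRMT1 and 0.91 for H3-3A, and against SKOV3 1.68 and 0.40. The processed log2 values that the authors deposited gave 0.68, 0.91, 1.67 and 0.40 in the same order. Without any scaling, PRMT1 was below IOSE80 with a difference of -0.37, and H3-3A was below SKOV3 with a difference of -0.23, so those directions reversed. PRMT1 against SKOV3 was 0.48 (SE 0.13, 95% interval 0.18 to 0.77) and H3-3A against IOSE80 was 0.18 (SE 0.12, 95% interval -0.10 to 0.46). SKOV3-DDP and IOSE80 shared no scan, so scan and line cannot be told apart for that pair without the SKOV3 arrays as a bridge. Against the 1 SKOV3 array of the same scan, SKOV3-DDP was 3.04 higher for PRMT1 and 2.34 higher for H3-3A.

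**Figure D3:**
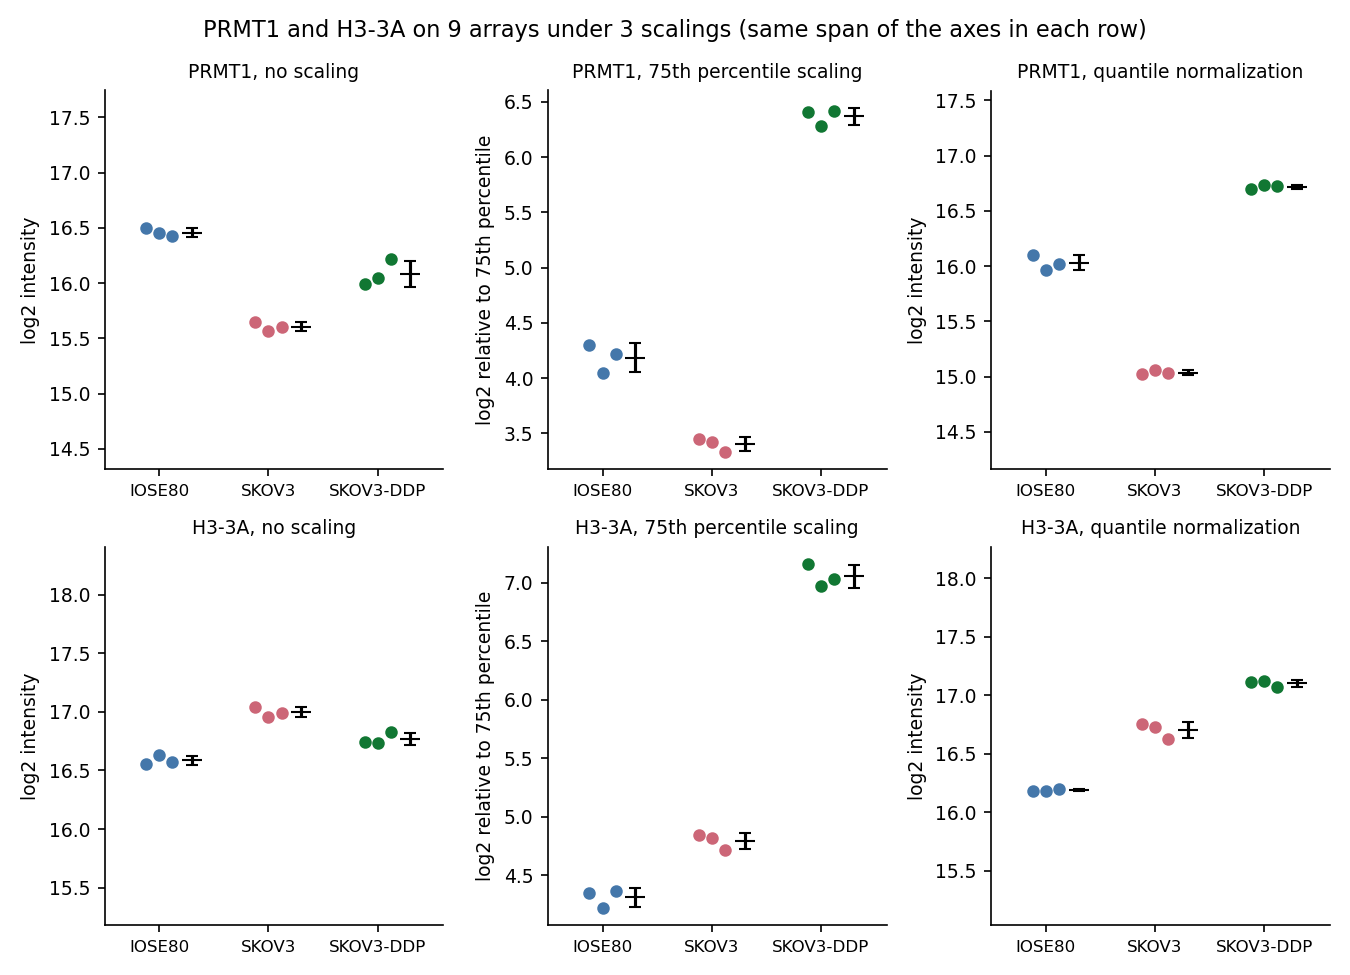
Log2 level of PRMT1 (top row) and H3-3A (bottom row) on the 3 arrays of each line (points) with the mean and SD (black, n = 3), without scaling (left), relative to the 75th percentile of probes detected on all arrays (middle) and after quantile normalization (right). The y axes span the same range within a row. PRMT1 in SKOV3-DDP lies between the other lines at left (16.08) and above them in the middle (6.37) and right panels (16.72), and H3-3A in SKOV3-DDP lies between them at left (16.77) and above them in the middle (7.06) and right panels (17.10).

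The PRMT1 signal relative to the H3-3A signal of the same array does not change when a whole array is brighter or dimmer by one factor. Its level has no meaning by itself, because probes differ in brightness for equal amounts of RNA, but its change between lines can be compared. This measure was chosen after the values had been seen and is given without a test. The log2 difference of PRMT1 minus H3-3A was -0.05, -0.18 and -0.15 on the IOSE80 arrays. On the SKOV3 arrays it was -1.39, -1.40 and -1.39, and on the SKOV3-DDP arrays -0.76, -0.69 and -0.61. The lines were separate, with SKOV3-DDP between IOSE80 and SKOV3. Line means were -0.13 ± 0.065, -1.39 ± 0.0055 and -0.69 ± 0.074 (SD, n = 3) in IOSE80, SKOV3 and SKOV3-DDP.

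PRMT1 relative to H3-3A was 2.40-fold lower in SKOV3 than in IOSE80, a log2 difference of -1.26 (SE 0.11). In SKOV3-DDP it was 1.47-fold lower than in IOSE80, at -0.56, and 1.63-fold higher than in SKOV3, at 0.71. Within scan 1 the difference of SKOV3 from IOSE80 was -1.27. Within scan 2 the SKOV3-DDP arrays were 0.70 above the 1 SKOV3 array. Quantile normalization, which stretches bright signals differently on each array, gave differences of -1.51, -0.23 and 1.28. It shrank the step from IOSE80 to SKOV3-DDP to -0.23 (95% interval -0.46 to 0.01) from -0.56 (-0.81 to -0.30). These intervals are descriptions and not tests.

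**Figure D4:**
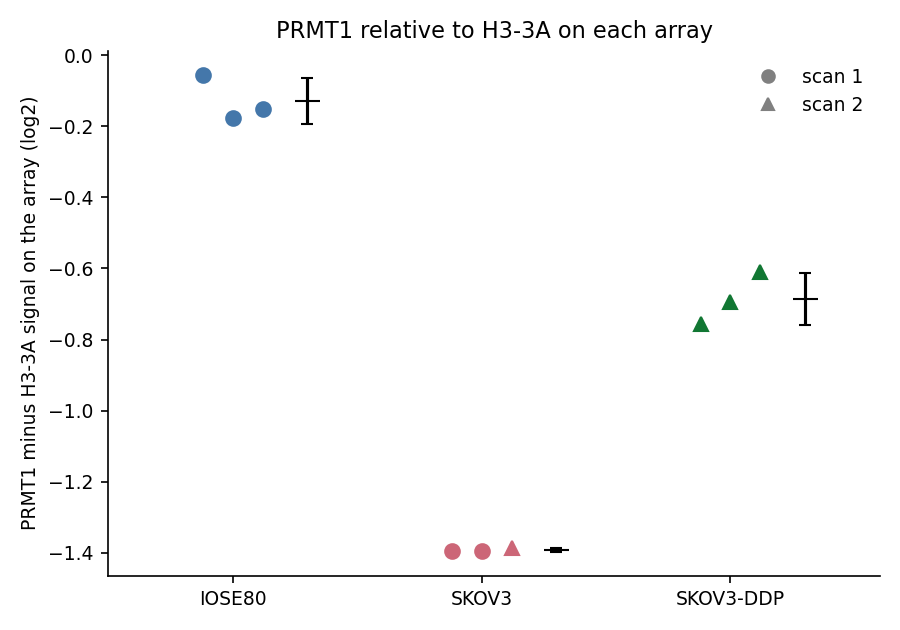
PRMT1 minus H3-3A log2 signal (y axis) on each of the 9 arrays by line (x axis), with the mean and SD of each line in black (n = 3), circles for scan 1 and triangles for scan 2. IOSE80 lies at -0.18 to -0.05, SKOV3 at -1.40 to -1.39 and SKOV3-DDP at -0.76 to -0.61, and the SKOV3 array of scan 2 lies with those of scan 1.

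Few other genes could be set beside the pair, since only the 20 probes with 10 spots had names. Of 71 genes on lists of chromatin genes, among them other arginine methyltransferases, H3.3 chaperones, histone variants and lysine methyltransferases, PRMT1 and H3-3A were the 2 with a named probe. Over the 9 arrays, the scaled PRMT1 signal was most like RPLP1, a ribosomal stalk protein (Pearson r = 0.961), ACTB, a cytoskeletal actin (0.958), and ARHGDIA (0.935). The H3-3A signal was most like ARHGDIA (0.998), the glycolytic gene GAPDH (0.991) and ACTB (0.990). All of these points share the scaling of the SKOV3-DDP arrays and fall into 3 lines, so the values describe this set of arrays. After quantile normalization, PRMT1 had r = 0.696 with ARHGDIA and 0.678 with RPLP1, while its r with ACTB was -0.148. H3-3A had 0.909 with ARHGDIA and 0.832 with ACTB. ARHGDIA differed by 0.38 in SKOV3 against IOSE80, by 3.35 in SKOV3-DDP against IOSE80 and by 2.96 in SKOV3-DDP against SKOV3 on the scaled log2 scale.

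Over the 6 IOSE80 and SKOV3 arrays alone, the genes nearest to each differed from these. RPL10, a ribosomal protein, and PFN1, which binds actin, were near PRMT1 (r = 0.970 and 0.969). DYNLL1, a dynein light chain, ODC1, the first enzyme of polyamine synthesis, and the glycolytic enzyme PGK1 were nearest to H3-3A (0.988, 0.980 and 0.977). PRMT1 and H3-3A had r = -0.902 with each other over these 6 arrays and 0.912 over all 9. The sign thus turned when the SKOV3-DDP arrays were added on the scaled values, and after quantile normalization r over the 9 arrays was 0.336.

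On the scaled values, the differences of both genes in SKOV3-DDP were above those of most named probes. Of the 17 other named probes tested, 4 were called higher and 8 lower in SKOV3-DDP than in IOSE80, with a median difference of -0.99 against 1.24 over all probes. Against SKOV3, 4 were called higher and 9 lower, with a median of -1.14 against 1.27. After quantile normalization, 1 was called higher and 11 lower against IOSE80, and 1 higher and 12 lower against SKOV3. Of all 28591 probes tested on that scale, 11867 were called higher and 10445 lower against IOSE80. Against SKOV3 the numbers were 11612 and 10115. In SKOV3 against IOSE80, 2 of the 17 were called higher and 2 lower, with a median of 0.05. The named probes are mostly genes of high and broad expression and do not stand for the array.

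**Figure D5:**
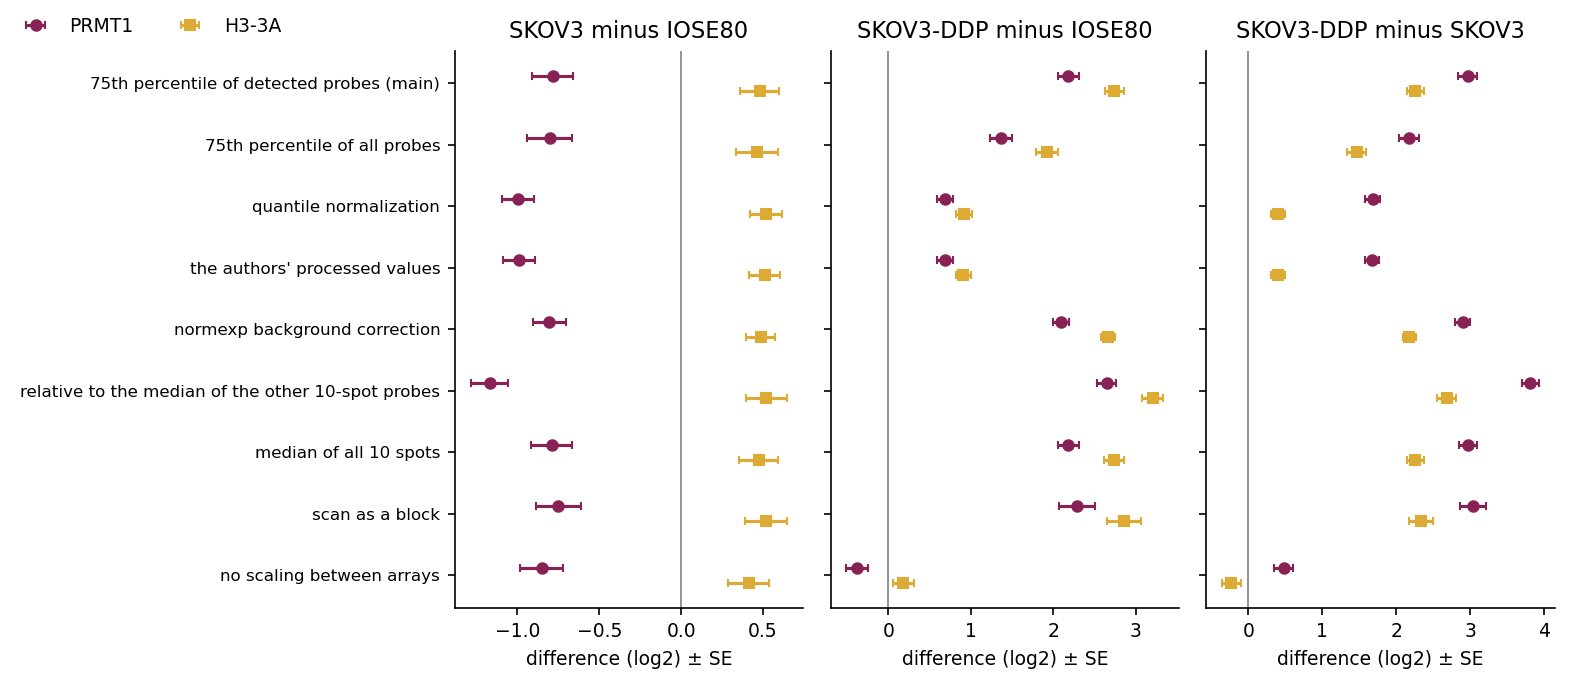
Difference in log2 (x axis, point ± SE of the limma fit) of PRMT1 (purple circles) and H3-3A (yellow squares) for the 3 pairs of lines under 9 settings (y axis), with 0 as a grey line. The SKOV3 minus IOSE80 points stay on one side of 0 in every setting drawn, between -1.17 and -0.75 for PRMT1 and between 0.41 and 0.52 for H3-3A, while SKOV3-DDP points move with the scaling and cross 0 without scaling for PRMT1 against IOSE80 (-0.37) and H3-3A against SKOV3 (-0.23).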

How the data were processed

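For each array the authors deposited its Feature Extraction file (version 11.0.1.1 in the header), with intensity values that are background-corrected per the file headers, and one table of log2 values that they had processed further. The labels name version 10.7.3.1 of that software. All columns of the deposited log2 table have nearly the same median and 75th percentile, as quantile normalization gives, and the table served as an alternative. The methods describe a low-input QuickAmp labeling kit and the labels random priming.

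For each probe, log2 intensities were averaged over its spots, without those marked non-uniform and, for 10-spot probes, without population outliers (4 of 90 PRMT1 spots and 3 of 90 H3-3A spots). From each array its 75th percentile was subtracted, over the 15226 probes detected on every array. The test took the 28591 of 60924 probes detected on 3 or more arrays, where detected means well above background. Lines were compared with limma 3.58.1 in R 4.3.3, with all 9 arrays in one model and Benjamini-Hochberg adjustment over all tested probes. The procedure was first tested on simulated data without shifts of whole arrays, so that test does not bear on the scaling. A call needed a fold change above 2, the threshold of the methods, and an adjusted p under 0.05. Other steps used pandas 2.3.3, numpy 2.4.6 and matplotlib 3.10.9 under Python 3.11.15.

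The 20 named probes were matched to symbols by RefSeq accession, NM_001536 for PRMT1 and NM_002107 for H3-3A. The probe sequences were not used here, so cross-hybridization with H3-3B or H3-3A pseudogenes was not checked. The genes and lists were chosen with earlier results of these data known. Named genes were the pair, for each the 3 most similar named 10-spot probes over 9 and over 6 arrays, and listed chromatin genes. The GAPDH and PGK1 controls were named too, and 1 gene that this rule picks is not reported here. Alternatives covered the scaling, normexp background correction (offset 50, on median spot signals), the authors' values, the spot summary, filters, blocks, the methods' t-test and each array left out. The number of arrays limits the precision.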

Additional observations from a re-analysis of the deposited data

Results flagged for a closer look

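PRMT1 moved to opposite sides of IOSE80 in SKOV3 and SKOV3-DDP on the scaled values. It was -0.78 in SKOV3 minus IOSE80 and 2.18 in SKOV3-DDP minus IOSE80 on the log2 scale, with every SKOV3 array below and every SKOV3-DDP array above the IOSE80 arrays. Both comparisons share the IOSE80 arrays, and the difference between them was not tested. Without scaling, SKOV3-DDP also lay below IOSE80, with a difference of -0.37.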

How the results depend on the processing

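For SKOV3 against IOSE80, the difference of both genes kept its sign and an adjusted p under 0.05 in all 22 alternatives, of which 21 used limma and 1 the methods' t-test, with adjusted p from 3.47e-05 to 0.00484 for PRMT1 and from 0.000744 to 0.0389 for H3-3A. These p-values, too, are not independent of the selection of the genes, and the 22 settings are not independent of each other. The PRMT1 fold passed 2 only relative to the other 10-spot probes (-1.17). The filters, the replicate block, the t-test and SKOV3-DDP arrays left out could not change these differences. The scan block gave the same values as leaving out SKOV3 replicate 3. The differences of SKOV3-DDP followed the scaling of its dimmer arrays. Against IOSE80, PRMT1 was 1.37 with the percentile of all probes, 0.69 after quantile normalization, 0.68 in the authors' values, 2.65 relative to the other 10-spot probes and, reversed, -0.37 without scaling. H3-3A was 1.92, 0.91, 0.91, 3.20 and 0.18 under the same settings, and 2.86 with the scan as a block. Against SKOV3, PRMT1 was 2.17, 1.68, 1.67, 3.82 and 0.48. H3-3A was 1.46, 0.40, 0.40, 2.68 and, reversed, -0.23, and 2.17 after normexp background correction. PRMT1 relative to H3-3A was -1.51 in SKOV3 minus IOSE80, -0.23 in SKOV3-DDP minus IOSE80 and 1.28 in SKOV3-DDP minus SKOV3 after quantile normalization, and -1.50, -0.23 and 1.27 in the authors' values. Scaling relative to the other 10-spot probes and no scaling at all were compared for these genes only.

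With each array left out in turn, PRMT1 ranged from -0.85 to -0.73 in SKOV3 minus IOSE80, from 2.11 to 2.24 in SKOV3-DDP minus IOSE80 and from 2.93 to 3.01 in SKOV3-DDP minus SKOV3. H3-3A ranged from 0.43 to 0.52, from 2.69 to 2.78 and from 2.21 to 2.30. PRMT1 relative to H3-3A ranged from -1.29 to -1.23, from -0.60 to -0.52 and from 0.67 to 0.74.

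Replicate numbers did not pair the arrays, since deviations of same-numbered arrays correlated between -0.061 and 0.171. With the replicate block the differences were the same, -0.78 for PRMT1 and 0.48 for H3-3A in SKOV3 minus IOSE80, with adjusted p of 0.00297 and 0.0229 in limma, and the block left calls at 9584 against 9568.

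Calls in SKOV3 against IOSE80, SKOV3-DDP against IOSE80 and SKOV3-DDP against SKOV3 numbered 9568, 23454 and 23144. They fell to 3804, 12602 and 12490 over probes well above background on all 9 arrays, where fewer probes were tested. Without a filter, where 60924 rather than 28591 probes were tested, they rose to 10682, 52160 and 51783. The methods' t-test with a fold change above 2 gave 9339, 22982 and 22530 at an unadjusted P under 0.05, and 9005, 22885 and 22397 after Benjamini-Hochberg adjustment. Leaving out arrays gave 9190 to 9888, 23219 to 23542 and 22810 to 23205.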
